A study of Homo sapiens with 2 samples.

Results

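RNA immunoprecipitation followed by sequencing (RIP-seq) was used to find transcripts held by ALKBH5 in HL-60 cells, a promyelocytic leukaemia line, and cell cycle control genes were among those with peaks. The genes described here were the symbols entered under the KEGG pathway Cell cycle, less every symbol that also stood under DNA replication, DNA repair, Fanconi anemia pathway or Homologous recombination. This left 54 of the 75 entries of the pathway, out of 5851 symbols named in the 3 deposited tables. The genes were thus selected on the authors' peak annotation of these libraries, so their presence is a description and not a result. The 54 symbols carried 51 gene identifiers, and 51 of the symbols were protein-coding genes.

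The IP group was 1 library of RNA recovered with an antibody against ALKBH5, an enzyme that removes the m6A mark from RNA, from 80% of the lysate. The input group was 1 library of RNA from 10% of the same lysate. The cells of both libraries were untreated as far as the labels go, and both carry the genotype label ALKBH5, which the labels do not explain. The title of each library names the opposite group from its library name, and the library names were followed. HL-60 is an established line descended from a single leukaemia. Of 10 promyelocyte markers, MPO, PRTN3, CEBPA and CD33 were named in the tables, and ELANE, AZU1, CTSG, CEBPE, MYB and SPI1 were not. The tables hold no level per gene or library, so a gene can only be listed or not listed, the depth behind it is unknown, and the part of transcript abundance in a listing was not tested.

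The cell cycle is driven by cyclins, which bind and switch on cyclin-dependent kinases (CDKs) in turn. CDK inhibitors, inhibitory kinases and CDC25 phosphatases set when each kinase acts. Checkpoints hold the cycle while DNA is damaged or chromosomes are not attached to the spindle. Once the spindle checkpoint is satisfied, the anaphase-promoting complex (APC/C) marks securin and cyclin B for destruction, separase cuts the cohesin rings that join sister chromatids, and the cell divides.

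The 3 symbols beyond the protein-coding genes each repeated the identifier of another symbol in the list. CCND2-AS1, an antisense RNA, carried the identifier of CCND2 and was named in the same 14 terms. RP1-85F18.6 shared the identifier and all 31 terms of EP300, and CTD-2196E14.5 those of PLK1, with 35 terms. Neither of these clone-style names was matched in RefSeq, so their positions are not given. In the RefSeq annotation of GRCh38.p14, CCND2 lies on chromosome 12 from 4273762 to 4305353 and CCND2-AS1 from 4248767 to 4276184. Their spans overlap by 2423 bases, which is 7.67% of CCND2 and 8.84% of CCND2-AS1. The library kit was stranded, per the labels' protocols, but no source used here says whether peaks were assigned by strand, so reads within the overlap cannot be told apart. The RefSeq promoter table places the CCND2-AS1 start at 4275477, which is 707 bases inside the outer end of its span, so it is the start of an inner transcript. The 150 bases before that start lie within the overlap and are shown for that reason (chr12:4275478-4275627, minus strand, 5′ to 3′).
CCND2-AS1: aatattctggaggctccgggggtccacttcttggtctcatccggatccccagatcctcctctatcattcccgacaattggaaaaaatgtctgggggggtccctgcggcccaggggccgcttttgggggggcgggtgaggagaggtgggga

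To see which roles the listed genes fill, they were set beside a list of the whole pathway written by role. That list held 124 genes, the same number as the background genes of the pathway in the authors' deposited table. All 72 distinct identifiers entered under Cell cycle were in it, which is 58.1% of the pathway (exact 95% interval 48.9 to 66.9%). Of 20056 protein-coding genes, 26.6% were named in any table. The genes were chosen from the Cell cycle entries, so the pathway share restates that choice and is a description. The share of 26.6% is not that of genes with peaks, because the GO and KEGG tables name a gene only through a listed term. The other 52 pathway genes were named in none of the 3 tables, under any of their unambiguous symbols. In the authors' deposited table Cell cycle had a p-value of 0.00108 and a corrected p of 0.100. Its deposited number of entries was 75, which counts repeated identifiers, on 124 background genes.

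**Figure D1:**
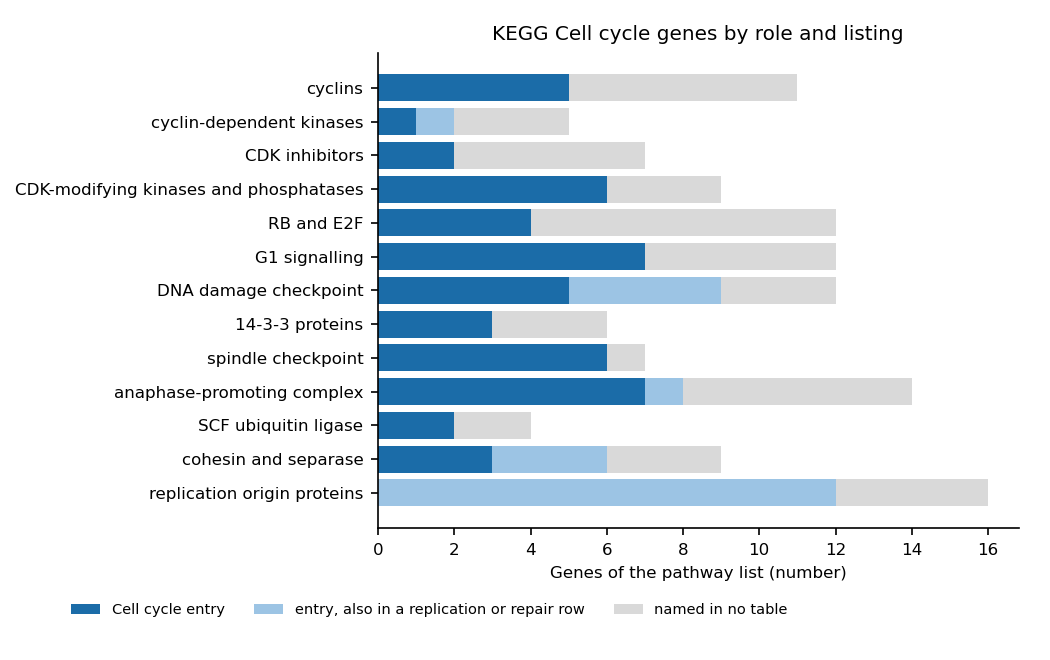
Number of genes of the pathway list (x axis) in each role (y axis). Dark bars count genes entered under Cell cycle, pale blue bars entries that also stood under a replication or repair row and were left out, and grey bars genes named in no table; the spindle checkpoint has 6 dark and 1 grey, and the RB and E2F group 4 dark and 8 grey.

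Among the 11 cyclins, 5 were listed. They were the 3 D-type cyclins CCND1, CCND2 and CCND3, which start the cycle in response to growth signals, CCNE2, which acts at entry into S phase, and CCNB1, the mitotic cyclin. CCNA1, CCNA2, CCNB2, CCNB3, CCNE1 and CCNH were named in no table. Of the 5 CDKs, CDK6, a partner of the D-type cyclins, was the only one to stay under the rule. CDK1, the mitotic kinase, was also an entry of Cell cycle but stood under DNA repair and DNA replication as well. CDK2, CDK4 and CDK7 were in no table.

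Of 7 CDK inhibitors, CDKN1B (p27) and CDKN2C (p18) were listed. CDKN1A, CDKN1C, CDKN2A, CDKN2B and CDKN2D were not. The 9 kinases and phosphatases that modify CDKs gave 6 members. WEE1 and PKMYT1 place the inhibitory phosphates on CDK1, and CDC25A, CDC25B and CDC25C remove them, so enzymes of both directions were named. PLK1, a kinase that promotes entry into mitosis, was the sixth. WEE2, CDC14A and CDC14B were not named.

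The RB and E2F group was listed in 4 of 12 cases. E2F2 and E2F3, transcription factors that drive S-phase genes, and the histone deacetylases HDAC1 and HDAC2, which help RB proteins repress them, were present. RB1, RBL1, RBL2, E2F1, E2F4, E2F5, TFDP1 and TFDP2 were absent, so the pocket proteins and the E2F partners of the TFDP kind had no entry. Signalling genes that act on the G1 phase were listed in 7 of 12 cases. These were MYC, a growth-promoting transcription factor whose gene is known to be amplified in HL-60, its partner ZBTB17 (MIZ-1), the tyrosine kinase ABL1, the coactivators EP300 and CREBBP, and TGFB1 with its signal carrier SMAD4. GSK3B, SMAD2, SMAD3, TGFB2 and TGFB3 were not named.

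The DNA damage checkpoint had 9 of 12 genes entered, of which 5 stayed under the rule. CHEK2 is a checkpoint kinase, PRKDC the catalytic subunit of the DNA-dependent kinase, MDM2 a ubiquitin ligase, and SFN (14-3-3 sigma) and GADD45B are damage or stress response genes. ATM, ATR, CHEK1 and PCNA were entries that also stood under replication or repair rows. GADD45A and GADD45G were in no table. Of the other 6 proteins of the 14-3-3 family, which bind phosphorylated partners such as CDC25, YWHAE, YWHAG and YWHAZ were listed, and YWHAB, YWHAH and YWHAQ were not.

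The spindle checkpoint had 6 of its 7 genes listed (85.7%, exact 95% interval 42.1 to 99.6%). The kinases BUB1 and TTK (MPS1), the pseudokinase BUB1B (BUBR1), BUB3, MAD1L1 and MAD2L1 were present. MAD1L1 places MAD2L1 at unattached kinetochores, and MAD2L1, BUB1B and BUB3 form the complex that holds CDC20. MAD2L2, known mainly as a subunit of a translesion DNA polymerase, was the gene without an entry.

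The APC/C, the target of that checkpoint, had 8 of 14 genes entered. ANAPC2 and ANAPC11 make up its catalytic core, ANAPC1 and ANAPC4 are scaffold subunits, ANAPC7 and CDC23 belong to its arc of repeat proteins, and CDC20 is the activator in mitosis. FZR1 (CDH1), the activator after mitosis, was an entry that also stood under DNA repair. ANAPC5, ANAPC10, ANAPC13, CDC16, CDC26 and CDC27 were not named. Of the SCF ubiquitin ligase, the adaptor SKP1 and the RING subunit RBX1 were listed, and the cullin CUL1 and the substrate receptor SKP2 were not.

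Cohesin and separase had 6 of 9 genes entered. STAG1 and STAG2, the alternative STAG subunits of the ring, and ESPL1 (separase), the protease that opens it, stayed under the rule. The core subunits SMC1A and SMC3 and the separase inhibitor PTTG1 (securin) also stood under DNA repair. RAD21, the subunit that separase cuts, was in no table, nor were SMC1B and PTTG2. With intervals this wide, the shares of single roles were not set against each other.

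Mitotic genes outside the KEGG pathway were read from 4 further lists. Of 52 such genes, 32 were named in the tables (61.5%, exact 95% interval 47.0 to 74.7%), against 26.6% of protein-coding genes. All 32 were entries of cell division (22 genes) or nucleoplasm (26 genes). A gene of the GO table could be named only through a listed term, and the part of this in the share was not tested. The 26.6% is over all protein-coding genes, whether or not a listed term annotates them, so the shares are not on the same base. In the authors' deposited table cell division had 197 entries on 346 background genes, and nucleoplasm 1939 on 3630. Condensin, which compacts mitotic chromosomes, had all 8 genes named: SMC2, SMC4, NCAPD2, NCAPD3, NCAPG, NCAPG2, NCAPH and NCAPH2. Kinetochore and chromosomal passenger genes, in a list that also held the spindle genes KIF11, KIF20A and AURKA, were named in 16 of 25 cases. The passenger genes AURKB, INCENP and CDCA8 were among them, and BIRC5, the other passenger subunit, was not. NDC80, SPC24 and SPC25 of the complex that grips microtubules were named and NUF2 was not. The identifier of PMF1 appeared only with the symbol PMF1-BGLAP and was not counted. Cohesin loaders and regulators were named in 5 of 11 cases, with NIPBL, MAU2, PDS5B, ESCO2 and SGO1. Of 8 genes listed for the DREAM complex and mitotic transcription, MYBL2, LIN9 and RBBP4 were named. FOXM1, LIN37, LIN52, LIN54 and FBXO5 were not, and FBXO5 belongs to neither kind.

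The other terms in which the cell cycle symbols stood were then compared with those of all 5614 symbols of the GO and KEGG tables. Nucleoplasm held 44 of the 54 (81.5%, exact 95% interval 68.6 to 90.7%), against 34.5% of all symbols and 46.0% of the 1266 symbols of the KEGG table. Cytosol held 43 (79.6%), against 43.9% of all symbols and 58.6% of those of the KEGG table. Cell division held 26 (48.1%), against 3.51% of all symbols and 5.45% of those of the KEGG table. Of the 21 Cell cycle entries left out by the rule, 20 stood in nucleoplasm (95.2%), 11 in cytosol (52.4%) and 6 in cell division (28.6%). Cell division annotates the process by which the genes were chosen, so its share is a description and not a result. These terms annotate proteins and describe where the encoded products work, not where the transcripts lie.

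**Figure D2:**
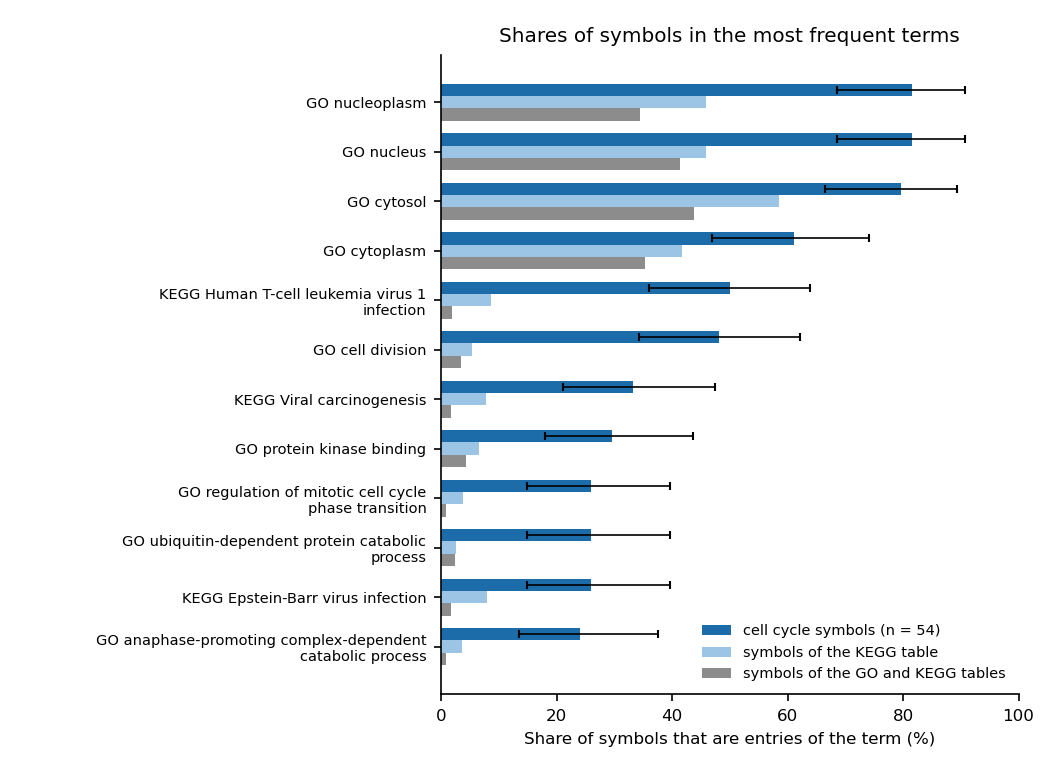
Share of symbols (x axis, percent) that were entries of each of the 12 most frequent terms beside Cell cycle (y axis), for the 54 cell cycle symbols, the 1266 symbols of the KEGG table and the 5614 symbols of both tables. Error bars are exact 95% intervals and cover counting error only; nucleoplasm stands at 81.5%, 46.0% and 34.5%.

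Virus-related pathways were the KEGG pathways most often shared. Human T-cell leukemia virus 1 infection named 27 of the 54 symbols (50%, exact 95% interval 36.1 to 63.9%), against 1.96% of all symbols and 8.69% of the KEGG symbols. They included all 7 APC/C members, CCND1, CCND2, CCND3 and CCNE2, the spindle checkpoint genes BUB1B, BUB3, MAD1L1 and MAD2L1, and EP300 and CREBBP. Viral carcinogenesis named 18 (33.3%, against 1.75% of all symbols and 7.74% of the KEGG symbols), with YWHAE, YWHAG and YWHAZ. Epstein-Barr virus infection named 14 (25.9%, against 1.80% and 7.98%), with E2F2, E2F3, HDAC1 and HDAC2. All 54 symbols are KEGG symbols by the rule, so the KEGG shares are the closer comparison. KEGG draws cell cycle genes into these pathways by annotation. In the authors' deposited table their corrected p-values were 0.231, 0.288 and 0.260.

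The role groups differed in how far they shared terms. The 7 APC/C members had 8 terms in common out of 27 that named any of them, including regulation of mitotic cell cycle phase transition and ubiquitin-dependent protein catabolic process. The 6 spindle checkpoint members shared kinetochore, mitotic spindle assembly checkpoint and Cell cycle out of 37. The 7 G1 signalling members shared Cell cycle alone out of 70. The 5 cyclins had 7 terms in common, among them cell division and protein kinase binding. Protein kinase binding named 16 of the 54 symbols (29.6%, against 4.28% of all symbols and 6.56% of the KEGG symbols).

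Terms of single steps of the cycle drew on different roles. The genes were chosen as entries of Cell cycle and these terms annotate the same process, so the shares are a description and not a result. CTD-2196E14.5 repeats the identifier of PLK1 and adds to several of the counts. By distinct identifier, mitotic spindle assembly checkpoint named 8, kinetochore 7 and anaphase-promoting complex-dependent catabolic process 12. Mitotic spindle assembly checkpoint named 9 of the 54 symbols (16.7%, against 0.338% of all symbols and 0.869% of the KEGG symbols). They were BUB1, BUB1B, BUB3, MAD1L1, MAD2L1 and TTK with CDC20, PLK1 and CTD-2196E14.5. The shares that follow are given in the same order. Kinetochore named 8 (14.8%, against 1.14% and 1.97%), the same 6 checkpoint genes with PLK1 and CTD-2196E14.5. Anaphase-promoting complex-dependent catabolic process named 13 (24.1%, against 0.891% and 3.63%), in which the APC/C members stood beside BUB1B, BUB3, MAD2L1, CCNB1 and PLK1. Ubiquitin-dependent protein catabolic process named 14 (25.9%, against 2.49% and 2.61%), with MDM2 and RBX1 and without CCNB1. Regulation of mitotic cell cycle phase transition also named 14 (25.9%, against 0.944% and 3.87%), with SKP1 among them. G1/S transition of mitotic cell cycle named 8 (14.8%, against 1.02% and 2.69%), which were CCND1, CCNE2, CDC25A, CDK6, CDKN1B, CDKN2C, E2F3 and MYC. Centrosome named 11 (20.4%, against 5.11% and 4.98%), including CCNB1, CCNE2, ESPL1 and MAD1L1. All 6 CDK-modifying enzymes were entries of G2/M transition of mitotic cell cycle, which named 12 of the 54 symbols (22.2%, against 1.39% and 2.21%). Of the 21 Cell cycle entries left out by the rule, 12 stood under the G1/S term (57.1%) and 1 under the G2/M term (4.76%).

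**Figure D3:**
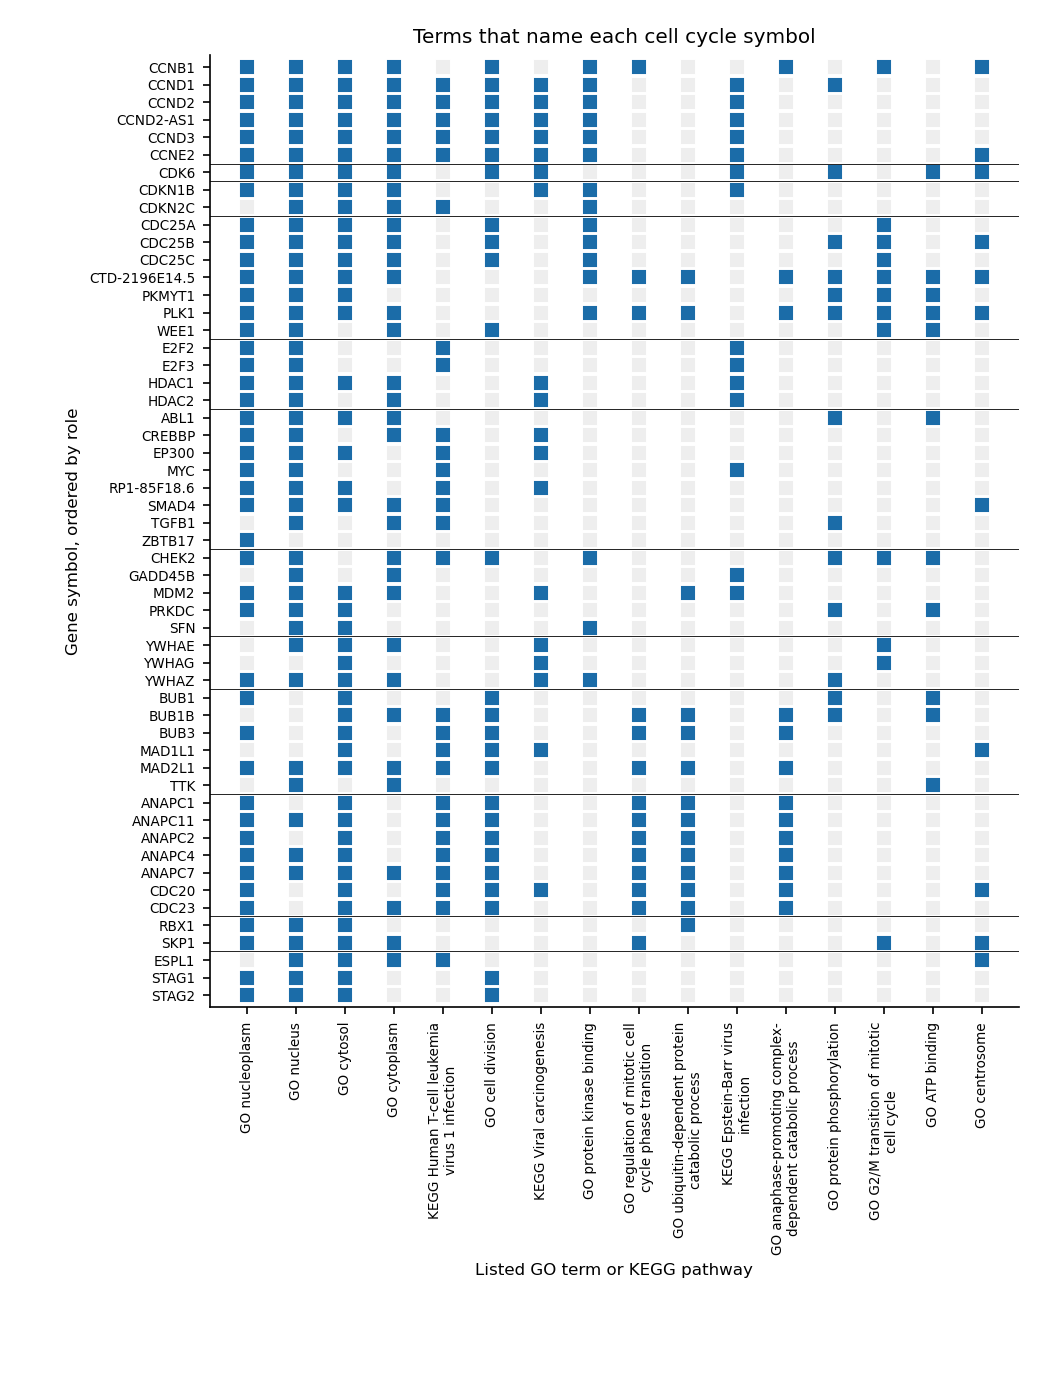
Each row is 1 of the 54 cell cycle symbols, ordered by role with lines between roles, and each column 1 of the 16 most frequent terms beside Cell cycle. Filled squares mark symbols that the term names; the 7 APC/C rows are filled in the same 7 columns, and CCND2-AS1, CTD-2196E14.5 and RP1-85F18.6 repeat the rows of CCND2, PLK1 and EP300.

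The number of listed terms that named a symbol had a median of 13.5 over the cell cycle symbols, with a range of 4 to 35, against a median of 8 over the KEGG symbols and of 4 over all symbols. PLK1 had the most, with 35 terms, followed by EP300 with 31 and ABL1 with 28. ZBTB17 had the fewest, with 4, and GADD45B and SFN had 6 each. For 16 symbols Cell cycle was the only listed KEGG pathway, among them BUB1, TTK, STAG1, STAG2, WEE1 and the 3 CDC25 phosphatases. CCND1, CREBBP, EP300, MDM2 and MYC stood in 6 listed KEGG pathways each.

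**Figure D4:**
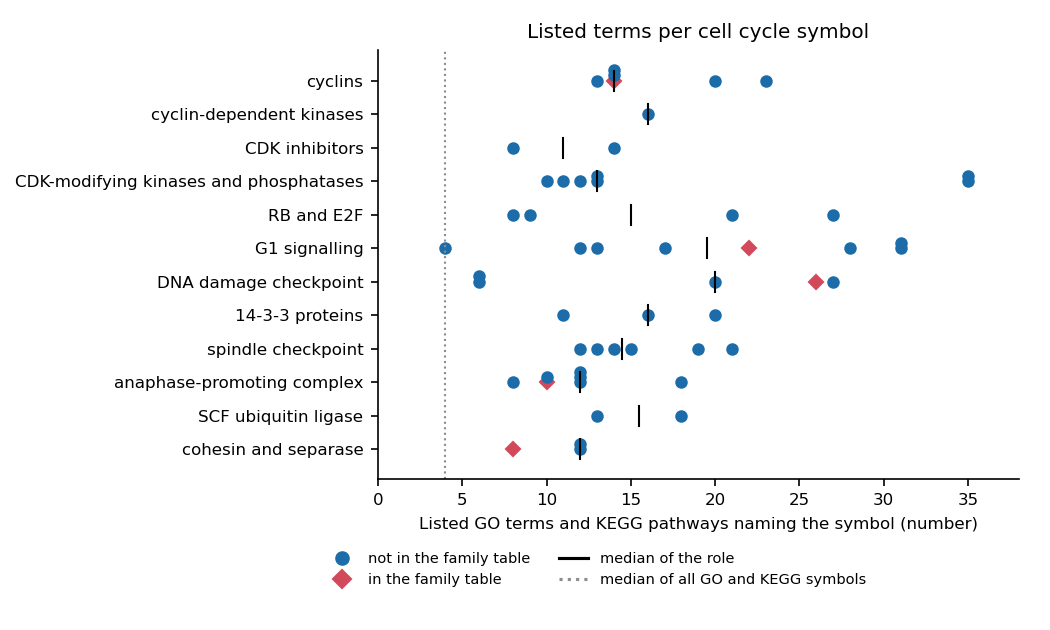
Number of listed GO terms and KEGG pathways that name each of the 54 symbols (x axis), by role (y axis). Circles are symbols outside the RNA-binding family table, diamonds the 5 symbols in it, black ticks role medians and the dotted line the median of 4 over all GO and KEGG symbols; PLK1 and CTD-2196E14.5 stand furthest right at 35.

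RNA binding named 5 of the 54 symbols (9.26%, exact 95% interval 3.08 to 20.3%). Its share was 14.6% of all symbols and 19.1% of the KEGG symbols, and both lie within the interval. The 5 were HDAC2, PRKDC, YWHAE, YWHAG and YWHAZ, so all listed 14-3-3 genes of the YWHA kind were among them.

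The third deposited table, which pairs symbols with families of RNA-binding proteins, was not used in choosing the genes. It held 5 of the 54 symbols (9.26%, exact 95% interval 3.08 to 20.3%), against 19.8% of all GO and KEGG symbols and 17.9% of the KEGG symbols. The interval holds the share of 19.8% and that of 17.9%. The 5 were the cyclin CCND2, the coactivator CREBBP, the ubiquitin ligase MDM2, the APC/C subunit ANAPC2 and the protease ESPL1. MDM2 was paired with the CSD, PUF and RRM families, and the other 4 with those and with the table's joint entry of CCHC zinc finger and RRM. No spindle checkpoint, CDK or CDK-modifying gene was in it. Of the 21 entries left out by the rule, ATM, CHEK1, FZR1, MCM6 and SMC1A were in it (23.8%, exact 95% interval 8.22 to 47.2%). Of the mitotic genes outside the pathway, 9 of 52 were in the family table, among them NDC80, SPC25, KNL1 and KNTC1 of the kinetochore. These 52 were counted whether listed or not, so their base is all protein-coding genes, of which 6.14% were in it. The shares of 19.8% and 17.9% above are of listed symbols, so the comparisons are not on the same base.

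Gene length was read from RefSeq, introns included. The 51 protein-coding members had a median length of 31.6 kb, against 35.6 kb over all listed protein-coding genes and 28.2 kb over the 52 pathway genes in no table. The shortest were SFN at 1.31 kb and GADD45B at 2.13 kb, and the longest were MAD1L1 at 417 kb and STAG1 at 416 kb. The 5 members of the family table ranged between 13.8 and 156 kb, within the range of the other 46. The part of gene length in the listing was not tested.

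The promoters of the members were searched as a sequence feature that the listing did not use, since late cell cycle genes are known to share the CHR and CCAAT elements, through which the DREAM and MYBL2 complexes and NF-Y act. RefSeq promoter windows (250 bases before to 50 after the start) were at hand for 40 protein-coding members, and matches were taken on either strand. PKMYT1, PRKDC, WEE1, YWHAZ, ZBTB17, CCND1, TTK, MYC, BUB3, CCND2 and CCNE2 had none. The CHR letters TTTGAA stood in 9 of the 40 windows (22.5%), against 12.7% of 15843 windows of protein-coding genes. Of the 9, 8 were among the 18 mitotic members (CCNB1, CDC25B, CDC25C, PLK1, and the spindle checkpoint, APC/C and cohesin genes), and the other was TGFB1, among 22 further members. This grouping was made after the tables were seen. CCAAT stood in 21 windows (52.5%, against 35.8%), and TTTCCCGC, TTTGGCGC, TTTCGCGC or TTTGCCGC, forms of the E2F site, in 5 (12.5%, against 4.23%). TATAAA, the TATA box, stood in 3 (7.50%, against 10.2%). These motif shares rest on few members and carry no interval, and no excess over all windows was tested. In no member did matches of different motifs overlap. A match is a run of letters and not a shown binding site, and RIP-seq does not measure promoters.

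The 4 members with both CHR and CCAAT letters in the 150 bases before the start are printed to show their arrangement, with those letters, on either strand, in capitals and each sequence 5′ to 3′ on the strand of its gene (RefSeq, GRCh38.p14). They were 4 of 40 members, against 278 of 15843 protein-coding genes (1.75%). In the whole window both stood in 5 members, the fifth being MAD2L1, against 5.25% of protein-coding genes. The printed stretches are CDC20 (chr1:43358831-43358980, plus), CDC25C (chr5:138331805-138331954, minus), ESPL1 (chr12:53268149-53268298, plus) and PLK1 (chr16:23678739-23678888, plus). The start used for CDC25C is that of an inner transcript, 6551 bases inside the outer end of the gene.
CDC20: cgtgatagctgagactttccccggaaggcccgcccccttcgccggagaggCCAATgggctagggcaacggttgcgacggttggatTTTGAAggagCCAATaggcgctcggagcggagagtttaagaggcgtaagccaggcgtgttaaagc
CDC25C: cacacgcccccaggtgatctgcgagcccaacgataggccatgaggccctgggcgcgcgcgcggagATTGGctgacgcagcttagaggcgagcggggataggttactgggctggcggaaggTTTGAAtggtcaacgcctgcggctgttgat
ESPL1: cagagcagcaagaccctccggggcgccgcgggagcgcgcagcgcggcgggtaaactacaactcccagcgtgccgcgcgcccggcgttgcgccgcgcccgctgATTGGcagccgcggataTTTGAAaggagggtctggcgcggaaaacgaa
PLK1: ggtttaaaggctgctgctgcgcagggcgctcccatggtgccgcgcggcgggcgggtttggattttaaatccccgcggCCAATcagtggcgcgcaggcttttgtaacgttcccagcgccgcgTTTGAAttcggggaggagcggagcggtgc
The CHR letters began at -30 in CDC25C, at -31 in ESPL1 and at -29 in PLK1, counted from the start site used, and at -65 and -178 in CDC20. In the other members with CHR, they lay at -32 in TGFB1, at -23 in BUB1B and at -236 in ANAPC7, and after the start at 25 in MAD2L1 and 38 in ANAPC1. The letters thus lay between -32 and -29 in TGFB1, ESPL1, CDC25C and PLK1, and no position was common to all 9 members.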

How the data were processed

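RIP-seq of ALKBH5 in HL-60 was deposited as 3 tables of the whole series, with 1 IP and 1 input library behind them. For every term, the authors' GO and KEGG tables hold how many entries and background genes it has, a rich factor (a ratio of shares), a p-value and a corrected p-value, and the entries as identifier and symbol, per the file headers. The 311 GO terms and 38 KEGG pathways shown had deposited p-values of at most 0.0497. The other deposited table pairs symbols with RNA-binding protein families and has no number. The build hg38 is named in the submitters' processing notes; no source used here gives the aligner, the peak caller or the use of IgG.

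Entries were counted per term with Python 3.11.15. Shares other than those of motifs and of the comparison sets carry exact Clopper-Pearson 95% intervals (SciPy 1.17.1), which cover counting error only. Gene selection was tested on simulated tables. Symbols were matched to RefSeq (GRCh38.p14) by symbol and unambiguous synonym; 52 of 54 matched by symbol. The genes, role lists and rule for naming genes (every member by role, and the unlisted genes of each role) were chosen with earlier results of these data known. No test was run: there are no replicates and no values per library. Alternatives counted identifiers or left out fewer rows.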

Additional observations from a re-analysis of the deposited data

How the results depend on the processing

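The number of cell cycle symbols was 54, and became 51 by distinct identifier, 58 with the DNA replication rows alone left out and 75 with no row left out. The family table share (9.26%) then ranged between 9.80 and 13.3%, that of nucleoplasm (81.5%) between 80.4 and 85.3%, and that of RNA binding (9.26%) between 8 and 10.3%, all within the exact 95% interval of the value reported. The 61.5% of mitotic genes outside the pathway that were named was the same in the GO or KEGG table alone and 17.3% in the family table alone, which holds fewer genes. No paired analysis was possible because each group has 1 library and the tables hold no value per library. No depth is known for any gene.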
